A study of Mus musculus with 5 samples.

Results

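The ubiquitin-specific proteases (USPs) are the protein-coding mouse genes whose symbol starts with Usp and a digit, and 56 of the 21887 protein-coding genes examined met that rule. Membership was set by symbol alone, but the family was put forward with its peaks in these data already known, so the peak counts, covered shares and scores below are descriptions with no test. H3K36me3, the trimethylated lysine 36 of histone H3, was mapped by chromatin immunoprecipitation and sequencing in mTEClo, medullary thymic epithelial cells sorted as EpCAM+, UEA-1+, Ly51lo and CD80lo from the thymus of wild-type B6 mice. The labels give neither age nor sex. All 5 libraries share this genotype, strain and sort, and no treatment is named. They are 2 ChIP libraries made with the antibody Abcam ab9050, called series 1 and series 2, and 3 inputs made without antibody, 2 of series 1 and 1 of series 2. The cells came from individual mice, but which mouse gave which library is not stated, and differences between the series cannot be told apart as biological or technical.

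USPs are cysteine proteases that cut ubiquitin from proteins or take ubiquitin chains apart, and they are the largest family of deubiquitinases. They set the stability of regulators such as p53 and its ligase Mdm2, remove ubiquitin from histones H2A and H2B, sort receptors at endosomes, recycle ubiquitin at the proteasome and adjust interferon, TGF-beta and NF-kappaB signalling. The mark mapped here is laid down by Setd2 along the bodies of transcribed genes and tends to be denser toward their distal ends. Of the genes chosen by symbol, Usp6nl is no protease but a GTPase-activating protein of Rab GTPases. Usp39, Usp50, Usp53 and Usp54 were listed as possibly lacking deubiquitinase activity, which was not examined here. The roles stated for single genes come from work in human and mouse cells.

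Series 1 held 7231 broad peaks and series 2 held 10243, with median widths of 483 bp and 222 bp. Each peak carries a whole-number score set by the authors, at least 10 in both lists. The files hold no read counts, so depth is unknown, and where no peak was called the mark may still have been present at a level too low to detect. As a check of the sort, 3 of 6 medullary epithelial markers carried a peak in at least 1 series, and Epcam, Krt14 and Ccl21a had none. Krt5 was marked in both, Trp63 in series 1 alone with a highest score of 17, and Relb in series 2 alone with 12. Of 14 markers of other thymic cells (thymocytes, endothelium, fibroblasts, myeloid and B cells), 3 carried a peak in at least 1 series. These were Itgam in series 1, and Satb1 and Arpp21 in series 2. Of 3 cortical epithelial markers, both series marked Ly75, with scores of 12 and 30, while Psmb11 and Enpep had none. Of 3 mature medullary markers, series 2 marked Cd80, on whose product the sort was gated low, with a score of 12, while Aire and Fezf2 had none. For reading these counts, the share of all coding genes with a peak in at least 1 list was 27.4%. Their part in the peaks of USP genes was not tested.

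The starts of the genes were compared first, since sequence there was not used to choose them. RefSeq windows on GRCm38.p6, from 250 bases before to 50 bases after a start, were matched for 43 of the 56 members. Those not matched were Usp1, Usp5, Usp9x, Usp14, Usp17le, Usp18, Usp22, Usp33, Usp39, Usp42, Usp43, Usp44 and Usp53. The windows given here run over the 250 bases before the start, 5′ to 3′ on the strand of the gene, with each CG dinucleotide in capitals. They were picked because they touch no annotated gene and run from few CG to many, though not to the highest counts seen. Usp12 and Usp16 had a peak in both series, Usp46 in series 2 alone, and Usp51, Usp17la and Usp17lb in neither.
Usp12, chr5:146794957-146795206, minus strand: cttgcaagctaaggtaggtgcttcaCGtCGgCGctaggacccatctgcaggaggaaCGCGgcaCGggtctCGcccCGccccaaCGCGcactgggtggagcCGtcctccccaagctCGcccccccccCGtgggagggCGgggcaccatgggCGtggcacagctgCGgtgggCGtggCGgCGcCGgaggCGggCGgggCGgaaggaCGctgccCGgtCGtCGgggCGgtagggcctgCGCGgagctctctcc
Usp16, chr16:87454735-87454984, plus strand: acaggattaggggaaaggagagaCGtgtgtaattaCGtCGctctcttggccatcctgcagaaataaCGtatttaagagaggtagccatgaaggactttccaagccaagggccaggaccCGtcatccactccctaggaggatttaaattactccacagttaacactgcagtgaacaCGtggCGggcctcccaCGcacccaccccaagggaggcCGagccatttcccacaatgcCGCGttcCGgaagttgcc
Usp46, chr5:74068412-74068661, minus strand: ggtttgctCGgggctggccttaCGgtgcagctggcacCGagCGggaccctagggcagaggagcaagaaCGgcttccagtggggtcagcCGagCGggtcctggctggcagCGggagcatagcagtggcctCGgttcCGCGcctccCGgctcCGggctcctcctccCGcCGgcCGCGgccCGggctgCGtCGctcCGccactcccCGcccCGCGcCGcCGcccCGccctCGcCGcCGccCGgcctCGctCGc
Usp51, chrX:153006219-153006468, plus strand: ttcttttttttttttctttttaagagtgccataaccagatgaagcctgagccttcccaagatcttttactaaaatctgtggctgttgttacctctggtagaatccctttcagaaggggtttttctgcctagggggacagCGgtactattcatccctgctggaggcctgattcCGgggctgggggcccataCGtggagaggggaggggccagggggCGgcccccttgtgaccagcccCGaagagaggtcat
Usp17la, chr7:104856766-104857015, plus strand: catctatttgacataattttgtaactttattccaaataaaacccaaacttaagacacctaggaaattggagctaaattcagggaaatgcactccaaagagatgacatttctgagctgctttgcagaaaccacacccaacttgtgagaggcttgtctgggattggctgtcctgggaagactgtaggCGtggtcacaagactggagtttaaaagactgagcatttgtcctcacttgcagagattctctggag
Usp17lb, chr7:104842584-104842833, minus strand: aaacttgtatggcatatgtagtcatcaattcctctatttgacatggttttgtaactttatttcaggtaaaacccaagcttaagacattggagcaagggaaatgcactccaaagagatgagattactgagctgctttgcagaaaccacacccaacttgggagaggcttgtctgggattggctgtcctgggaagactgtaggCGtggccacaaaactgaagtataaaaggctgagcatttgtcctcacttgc
The printed bases hold 30 CG for Usp12, 12 for Usp16, 33 for Usp46, 5 for Usp51 and 1 each for Usp17la and Usp17lb. These 6 were chosen to show low and high counts and do not stand for their groups, which are given in full next.

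Members with a peak mostly had CG-rich starts. Over the whole 300-base window the median count of CG was 36 for the 11 matched members with a peak in both series (range 11 to 63), 33 for the 17 with a peak in 1 series and 8 for the 15 with none. The last group includes 4 alike Usp17 copies, with 0 or 1 CG each, and its median was 17 for the other 11. The groups overlap, since Usp35, Usp20 and Usp38 had 30, 28 and 27 CG and no peak, and Usp10 had 8 CG and a peak. For 8 members the RefSeq window starts more than 1 kb inside the annotated span, up to 38.5 kb for Usp37, and belongs to a downstream start. Among the 35 windows within 1 kb of the annotated start the medians were 35.5, 29 and 8. The same order was seen over all 17492 matched coding genes, with medians of 23, 20 and 9. At least 10 CG were found in 26 of the 28 members with a peak in either series (92.9%) and in 7 of the 15 without (46.7%), against 57.2% of all matched coding genes. Split in the same way, the share over coding genes was 84.9% with a peak in both series, 78.9% in 1 and 48.3% in none. The letters GGGCGG, a GC box bound by Sp1-type factors, were searched on both strands and contain a CG themselves. They stood in 27 of 43 windows, against 46.3% of all coding gene windows. This was 21 of the 28 members with a peak and 6 of the 15 without. Over coding genes with a peak in both series, in 1 and in none it was 65.1%, 62.9% and 39.8%. The letters TATAAA, also searched on both strands, stood in 5 of 43, against 13.3%. Those 5 were Usp19, Usp40 and the alike copies Usp17lb, Usp17lc and Usp17ld, so the count rests mostly on copies. Either motif is a match of letters and not a shown binding site.

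**Figure D1:**
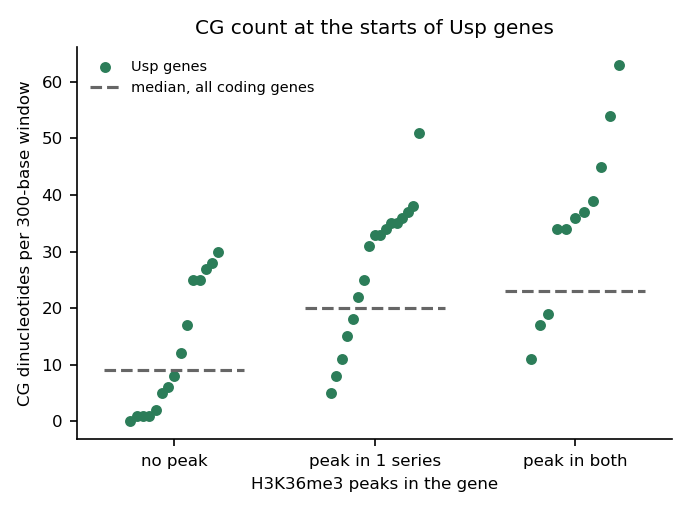
Number of CG dinucleotides in the 300-base RefSeq start window of each of 43 Usp genes (points; 8 windows lie more than 1 kb inside the annotated span), grouped by whether the gene held no peak, a peak in 1 series or a peak in both; dashed lines are the medians of all coding genes in the same group. The medians of the Usp genes are 8, 33 and 36, the first being 17 without the Usp17 copies, and the groups overlap.

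No peak touched the start window of any matched USP gene. Of the 43 genes with a matched window, the window lay under a peak in 0 for series 1 and in 0 for series 2, and over all 17492 matched coding genes the windows with a peak numbered 8 and 12. The peak nearest to the annotated start of a member was centred 1.60 kb into Usp21 in series 2 and 5.13 kb into Usp4 in series 1. The peaks of USP genes were therefore read along the gene bodies.

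USP genes carried peaks in 20 of 56 cases (35.7%) in series 1, where 16.3% of all coding genes had one, and in 27 of 56 (48.2%) in series 2, where the share was 19.5%. Both series marked 13 members (23.2%, against 8.42% of all coding genes), at least 1 series marked 34 (60.7%, against 27.4%), and 22 had no peak. A gene is called marked here when at least 1 bp of its annotated span lies under a peak. The members held 35 peaks in series 1 and 45 in series 2, which is 10.8 and 13.9 peaks per Mb of gene span, against 4.97 and 6.19 over all coding genes. Peaks covered 0.636% and 0.544% of the summed span of the family, against 0.315% and 0.224% of that of all coding genes. In both series the family thus lay above the whole set of coding genes, without allowance for gene length.

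**Figure D2:**
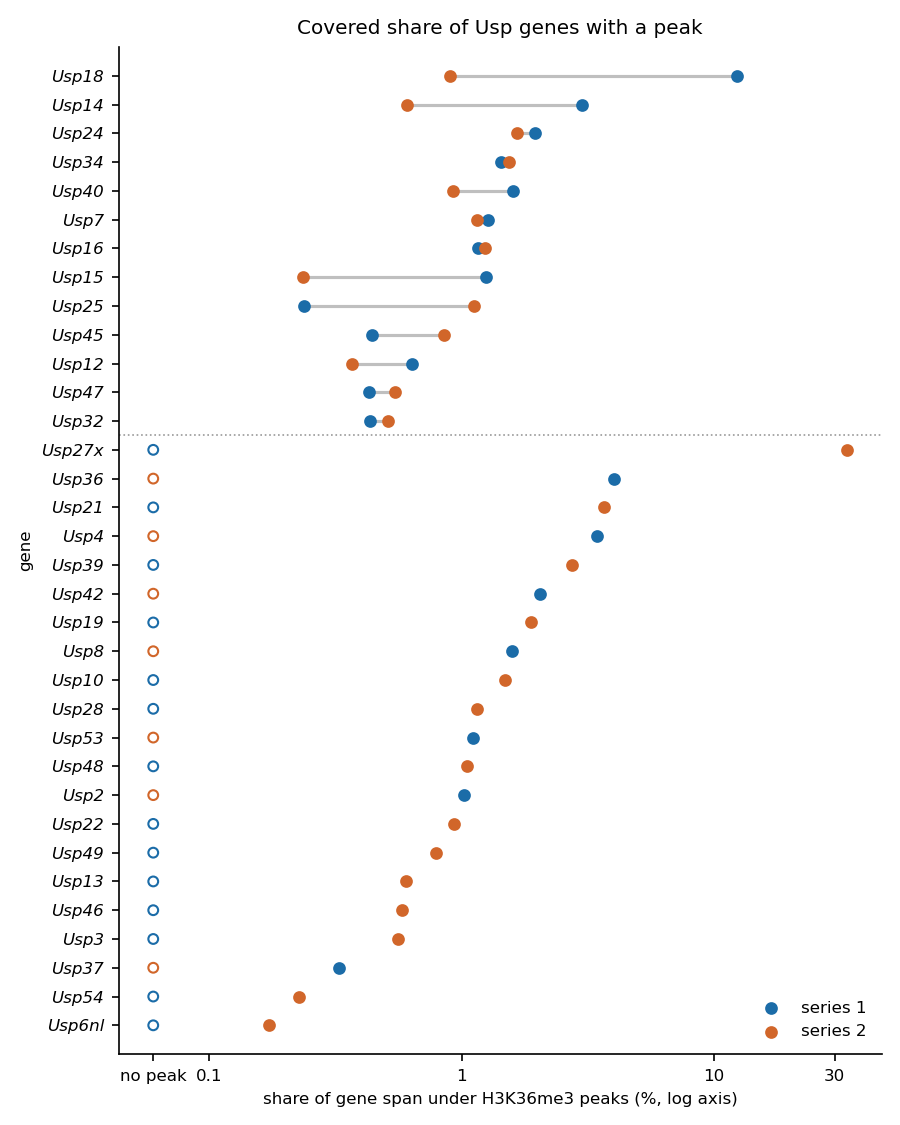
Share of the annotated gene span under H3K36me3 peaks (percent, log axis) for the 34 Usp genes with a peak; filled points are the series, open points at the left mean no peak in that series, and grey lines join the series of a gene. The 13 genes above the dotted line have a peak in both series, and Usp18 and Usp15 show wide gaps between the series where Usp24, Usp34, Usp7, Usp16, Usp32 and Usp47 show narrow ones.

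Longer coding genes were hit more often, and USP genes are long. Their median span was 48.0 kb, against 17.2 kb for all coding genes, and 44 of 56 were longer than that median. The median was 70.7 kb for the 13 members hit in both series, 52.1 kb for those hit in 1 and 23.1 kb for those hit in none. Coding genes were split into 10 length classes of about equal number. In the longest class, from 108.5 kb, series 1 marked 4 of 8 members, series 2 marked 5, and 3 were marked by both, where 48.7%, 61.4% and 34.3% of all genes were. USP genes of that class were thus close to other genes of their size. In the class from 57.1 to 108.5 kb, series 1 marked 7 of 15 members and series 2 marked 12, with 7 shared, against 33.3%, 40.9% and 19.6%. In the class from 35.9 to 57.1 kb, series 1 marked 5 of 11 and series 2 marked 3, with 1 shared, against 25.7%, 29.6% and 12.02%. Over these 3 classes together, series 1 marked 16 of 34 members (47.1%) and series 2 marked 20 (58.8%), against 35.9% and 44.0% of all genes. Members of these classes held 9.69 and 12.8 peaks per Mb in series 1 and 2, against 4.34 and 5.63 for all genes. Length is not matched in this density, since all genes reached 2390 kb and members 236.7 kb. For all coding genes of the shorter classes the density was higher, at 7.98 and 8.85. Among the 22 shorter members, whose median span of 15.5 kb exceeded the 9.51 kb of all shorter coding genes, series 1 marked 4 and series 2 marked 7, against 7.92% and 8.98%. The 4 in series 1 all lie in the class from 24.6 to 35.8 kb. There series 1 marked 4 of 6 members and series 2 marked 3, with 2 shared, against 21.5%, 22.2% and 8.95%. By the share of genes marked, USP genes lay well above the background in that class, on 6 members, and in the class from 57.1 kb. They lay close to it in the longest class. In the class from 35.9 kb they lay above it in series 1 and slightly below it in series 2 and in both.

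**Figure D3:**
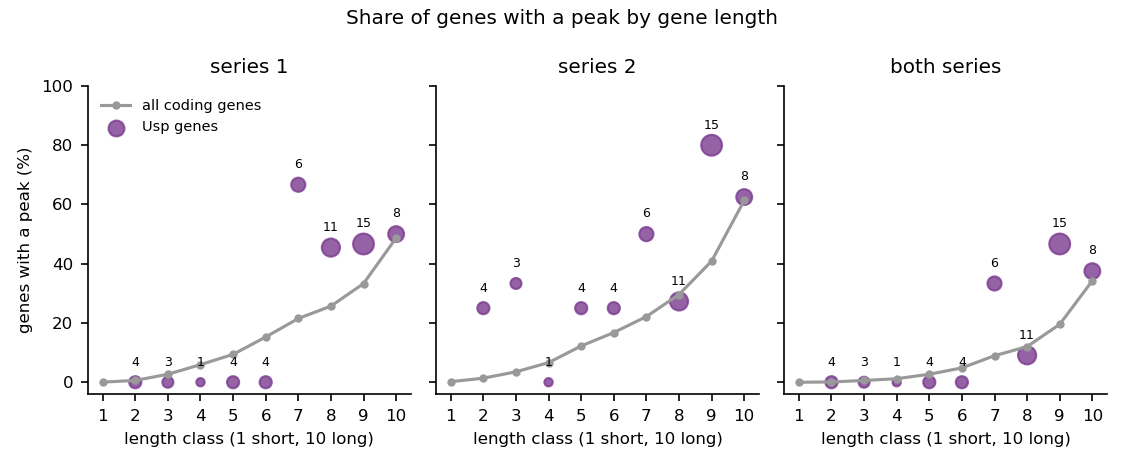
Share of genes with a peak (percent) in 10 classes of gene length, for all coding genes (grey line) and Usp genes (purple points, sized and numbered by the count of Usp genes in the class), in series 1, series 2 and both. In class 9 the Usp genes lie above the grey line in each panel, with 7, 12 and 7 of 15 genes hit; in class 10 they lie near it.

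Among the 13 members marked in both series, the covered share had a median of 1.20% as a mean over the series, against 0.846% for all 1843 coding genes marked in both. For the 11 of them in the 3 longest classes it was 0.742%, against 0.605% for all genes of those classes. Usp34 and Usp24 held the most peaks of the family. Usp34, a regulator of Wnt signalling through axin, spans chromosome 11 from 23303185 to 23490560 on mm10, with 4 peaks in series 1 over 1.43% of its span and 6 in series 2 over 1.54%. Usp24, which acts on p53 in human cells, lies on chromosome 4 from 106315980 to 106446613 and had 4 peaks in each series over 1.95% and 1.65%. Their shares were alike in the series, at 1.49% ± 0.0781 for Usp34 and 1.80% ± 0.207 for Usp24 (SD, n = 2).

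Members that act on p53 and in the response to DNA damage were marked in 8 of 9 cases in at least 1 series. The share was 27.4% over all coding genes and 54.6% in the class that holds the median span of the group, 64.4 kb. Both series marked 3 of 9, against 8.42% of all coding genes and 19.6% of that class. Usp7, the protease of Mdm2 and p53 on chromosome 16 from 8688722 to 8757067, had 1 peak per series, over 1.27% and 1.15% of its span and with scores of 15 and 14. Usp47, which acts on DNA polymerase beta, was covered over 0.430% in series 1 and 0.544% in series 2, with 1 and 2 peaks. Both genes had much the same share in each series. Usp4, Usp37, Usp10, Usp28 and Usp48 were marked in 1 series each, and Usp11 in neither. Usp4 had 3 peaks over 3.45% in series 1 alone, and Usp28, which acts on Myc, had 3 over 1.15% in series 2 alone. Usp37 had 1 peak with a score of 69 in series 1, the second highest score in the family after the 88 of a peak in Usp15.

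The signalling members were marked in both series in 4 of 8 cases, against 8.42% of all coding genes and 19.6% of those in the class that holds the group's median span of 78.9 kb. At least 1 series marked 6 of 8, against 27.4% of all coding genes and 54.6% of that class. Usp18, which removes the ubiquitin-like protein ISG15 and restrains the type I interferon receptor, had the largest covered share of the 4 marked in both. It lies on chromosome 6 from 121245906 to 121270917. In series 1 it held 3 peaks of 1028, 1268 and 796 bp that covered 12.4% of its span, and in series 2 1 peak of 225 bp that covered 0.900%. The share thus differed widely between the series, and the mean of 6.63% ± 8.11 (SD, n = 2) rests on series 1, where the highest of the 3 scores was 23. Usp15, a protease of TGF-beta receptor signalling on chromosome 10 from 123105006 to 123197281, was also carried by series 1, with 3 peaks over 1.25% against 1 peak over 0.234% and a score of 12 in series 2. Usp25, which acts on TRAF adaptors, leaned the other way, with 0.238% in series 1 and 1.12% in series 2. Usp2 had 1 peak in series 1 and Usp13 had 3 in series 2, while Usp31 and Usp38 had none.

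Histone deubiquitinases were marked in 7 of 9 cases, 5 of them in series 2 alone. The share in either series was 27.4% over all coding genes and 34.7% in the class that holds the group's median span of 28.5 kb. Both series marked 1 of 9, near the shares of 8.42% over all coding genes and 8.95% in that class. Usp16, a protease of ubiquitinated H2A on chromosome 16 from 87454985 to 87483515, was the member of this group marked in both, over 1.16% and 1.24% of its span. Usp22, the H2B protease of the SAGA coactivator, had 1 peak of 217 bp in series 2 with a score of 44. Its relatives Usp27x and Usp51, which can take its place beside Atxn7l3, are short genes of the X chromosome. Usp27x, 3.24 kb long and placed from 7372591 to 7375830, had 1 peak of 1091 bp in series 2 over 33.7% of its span with a score of 16, the largest covered share in the family, and none in series 1. Usp51 had no peak in either series. Usp3, Usp21 and Usp49 were marked in series 2, and Usp36, a nucleolar member, had 2 peaks over 4.02% in series 1. Both peaks of Usp49 also lie in the coding gene model Gm20517, and Usp44 had no peak.

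For the remaining groups, the shares to read beside are those of all coding genes, 27.4% in at least 1 series and 8.42% in both. The membrane traffic group had 3 of 7 members marked in at least 1 series and 1 of 7 in both. This lay below the 54.6% and 19.6% of coding genes in the class that holds its median span of 102.3 kb. Usp32, which acts on Rab7 in human cells, was the member of the membrane traffic group marked in both series, at 0.433% and 0.513%. Usp8, the protease of receptors at endosomes, had 1 peak in series 1 over 1.58%, Usp6nl had 1 in series 2, and Usp9x, Usp9y, Usp20 and Usp33 had none. Of the partners of the WD-repeat protein Wdr48, Usp12 was marked in both series over 0.637% and 0.369%, Usp46 in series 2 and Usp1 in neither. Usp14, the protease bound to the proteasome, had 2 peaks over 2.997% in series 1 and 1 peak over 0.608% in series 2, while Usp5, which takes free ubiquitin chains apart, had none. Usp40 and Usp45 were marked in both, with 1.59% and 0.923% for Usp40 and 0.443% and 0.8499% for Usp45. Usp39, part of the spliceosome, had 2 peaks over 2.73% in series 2. Usp53 and Usp42 had 1 each in series 1, Usp19 and Usp54 had 1 each in series 2, and Usp30, Usp35, Usp43 and Usp50 had none.

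Members of the list named germ line had no peak in either series, 0 of 7, but most are short. The name was given when the list was written, and where these genes are expressed was not examined. Of the 7, 5 lie in classes where 1.87% to 11.4% of coding genes had a peak in either series, so a count of 0 is near the background there. Usp26 and Usp29 lie in longer classes, where 43.3% and 75.8% had one. The members of the list are Usp26, the imprinted gene Usp29 and the clustered copies Usp17la, Usp17lb, Usp17lc, Usp17ld and Usp17le. Usp29, the longest of all 56 genes at 236.7 kb, was among them. The Usp17 genes measure from 2.33 to 9.51 kb and resemble each other: the 300-base windows of Usp17lc and Usp17ld share an identical run of 90 bases, and those of Usp17la and Usp17ld one of 76. Reads from such copies may map to several places, and how these were filtered is not given in the labels. Of the 6 members on the X and Y chromosomes, series 1 marked 0 and series 2 marked 1. All coding genes of these chromosomes were also hit less often, 4.75% in series 1 and 10.9% in series 2, against 17.0% and 19.98% on autosomes.

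Peaks of the series seldom fell at the same place in a USP gene. Of the 13 members marked in both, only Usp32 had peaks that touch, and over all coding genes marked in both 17.6% did. They share 380 bp, with a series 1 peak from 85119774 to 85120220 (score 33) and a series 2 peak from 85119841 to 85120639 (score 12) on chromosome 11. In Usp34 a peak of each series lay 1 bp apart close to the end of the gene, in a stretch also annotated to Ahsa2. The smallest gap was 0.336 kb in Usp25, 1.31 kb in Usp18 and 1.496 kb in Usp47, and it reached 26.6 kb in Usp45. Over the 13 genes the median gap was 4.55 kb, against 7.18 kb over all coding genes marked in both, so peaks at different places in a gene were common in these lists as a whole.

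Along the gene body, series 1 peaks of USP genes lay more toward the distal end than series 2 peaks, on few peaks in each. The RefSeq windows give the strand of the 43 matched genes, and positions run from the annotated start (0%) to the end (100%). In series 1 the 28 peaks had a median position of 71.5%, with 21 (75%) in the distal 50% of the gene, and 12 in the last 20% from 10 genes. In series 2 the 40 peaks had a median of 49.8%, with 20 (50%) in the distal 50%. Over all coding genes this distal part held 62.0% of peaks in series 1 and 59.4% in series 2, so the family lay above this in series 1 and below it in series 2. Every one of the 16 members with a series 1 peak and a known strand had at least 1 in the distal part, against 68.7% of coding genes with such a peak, and in series 2 this held for 12 of 23, against 68.8%. A count of at least 1 rises with peaks per gene: series 1 gave 28 peaks in these 16 members, and 4113 in 2829 coding genes. Several peaks come from the same gene, and the difference from all coding genes was not tested. Without Usp24 and Usp34, which give the most peaks, the shares of peaks in the distal part were again 75% and 50%.

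**Figure D4:**
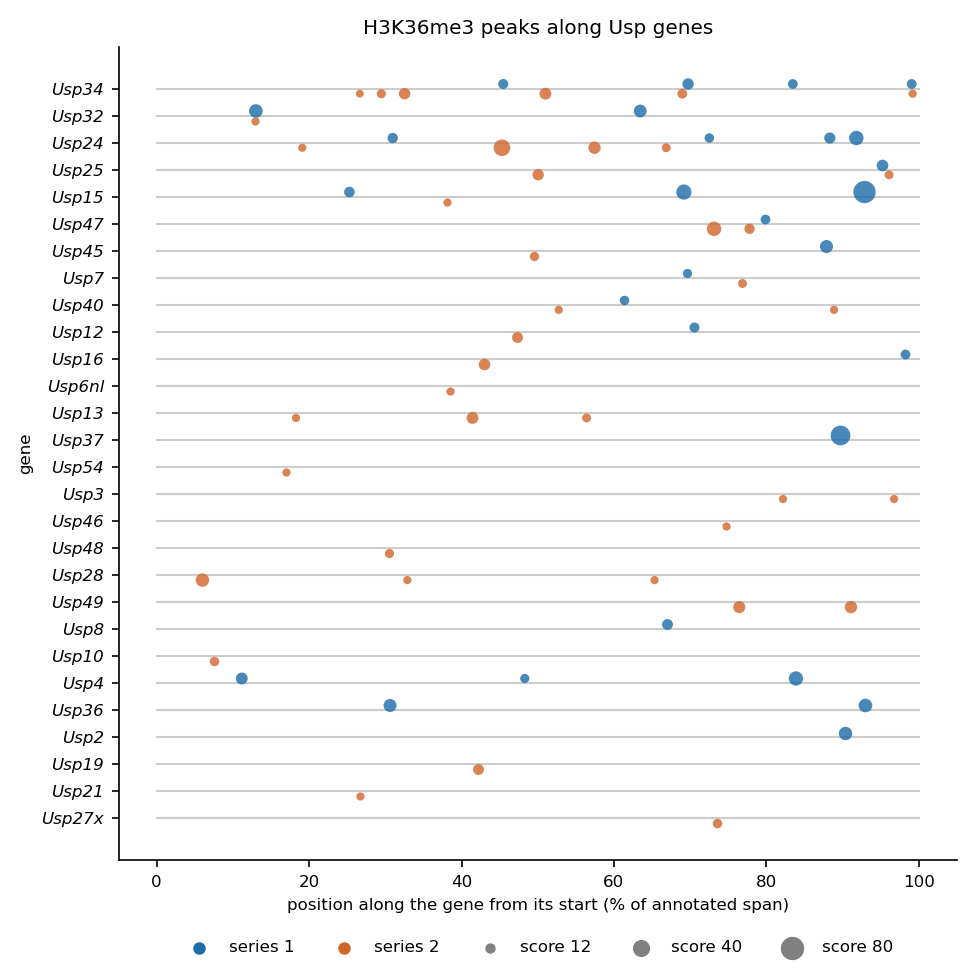
Centres of H3K36me3 peaks along the 28 Usp genes with a peak and a known strand, from gene start (0%) to gene end (100%), in series 1 (blue) and series 2 (orange), with the area of a point in proportion to the authors' score. Genes at the top have a peak in both series; Usp15 and Usp37 carry large points near the end, and the blue points gather to the right.

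Among series 1 peaks near the end were those of Usp15 at 92.9% with a score of 88, Usp37 at 89.7% with 69, Usp16 at 98.1% with 17 and Usp25 at 95.2% with 24. In series 2, peaks near the start were found in Usp28 at 6.003% with a score of 32 and in Usp10 at 7.58% with 16. The peak of Usp32 that both lists hold is at 13.0%, nearer to the start than most.

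**Figure D5:**
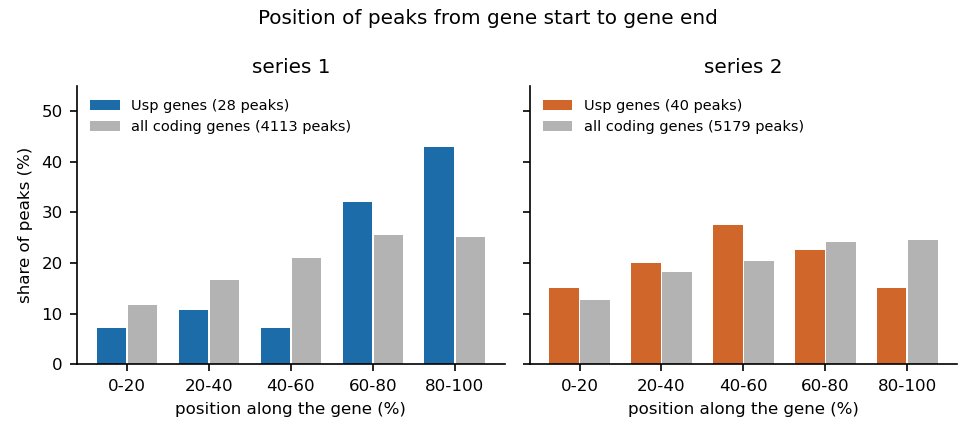
Share of peaks (percent) in steps of 20% of the gene from start (0%) to end (100%) for Usp genes (coloured bars) and all coding genes (grey bars), in series 1 and series 2. In series 1 the last step holds 42.9% of the Usp peaks against 25.1% for all coding genes, and in series 2 it holds 15.0% against 24.5%.

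Peaks of USP genes were otherwise much like those of other genes in their list. Their median width was 447 bp in series 1 and 223 bp in series 2, against 523 and 223 bp for all peaks in coding genes, and their median score was 22 and 15, against 21 and 16. In series 2, 24 of 45 (53.3%) were at most 9 bp wider than the narrowest peak of the list, against 58.9% of all peaks in coding genes, and 17 (37.8%) had a score of at most 12, against 31.7%. Of the 14 members marked in series 2 alone, 5 (Usp3, Usp6nl, Usp21, Usp46 and Usp54) rested on peaks of a score of 12 or lower, close to the lowest score of 10. Among the members marked in both series, Usp15, Usp18, Usp32 and Usp40 also had no series 2 peak with a score above 12.

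Stricter rules left fewer members, as they left fewer genes of any kind. When peaks had to score at least 20, 14 members were marked in series 1 (10.9% of all coding genes), 13 in series 2 (9.01%), 4 in both (3.3%) and 23 in either (16.6%). The 4 were Usp14, Usp24, Usp25 and Usp34. At a score of at least 50, Usp15 and Usp37 were marked in series 1 (1.48% of all coding genes), 0 members in series 2 (0.763%) and 0 in both (0.0868%), which makes 2 in either (2.16%). Asking for at least 1% of the span left 12 members in series 2 (7.1%), 4 in both (2.28%) and 22 in either (13.9%), the 4 being Usp7, Usp16, Usp24 and Usp34. At 10% of the span, Usp18 was marked in series 1 (0.525%) and Usp27x in series 2 (0.233%), with 0 in both (0.0183%) and 2 in either (0.74%). Without the narrow peaks, 16 members were marked in series 2 (9.76%). Of the 13 members marked in both, 9 remained so under that rule, and Usp12, Usp14, Usp15 and Usp18 did not. Usp24 and Usp34 were the members found in both series under the score of 20 and the 1% rule alike.

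The list of other deubiquitinases and partners of USPs, made by symbol and not by shown activity, numbered 51 genes, with a median span of 30.9 kb. Series 1 marked 17 of them (33.3%) and series 2 marked 18 (35.3%), against 16.3% and 19.5% of all coding genes. Both series marked 6 (11.8%, against 8.42%) and at least 1 marked 29 (56.9%, against 27.4%). In the class that holds this median span, these shares were 21.5%, 22.2%, 8.95% and 34.7% of coding genes. The 56.9% was close to the 60.7% of USP genes, but the share marked in both series was 11.8% against 23.2%. The 2 lists also differ in median span, 30.9 kb against 48.0 kb for USP genes. The 6 were Psmd14, the proteasome deubiquitinase, Otulin, the protease of linear ubiquitin chains, Eif3f, a translation initiation subunit of the same fold as Psmd14, and 3 partners of USPs. Eif3f had the largest share of these, with 5.42% in series 1 and 7.28% in series 2. Otulin had 2.12% and 1.44%, and Psmd14 had 0.929% and 1.04% with 2 peaks in each series. The 3 partners are Wdr48, the activator of Usp1, Usp12 and Usp46, with 1.41% and 2.45%, Atxn7, of the SAGA module that holds Usp22, with 0.855% and 0.558%, and Gmps, a partner of Usp7, with 5.02% and 1.28%. Wdr48 and Usp12 were thus both marked in both series, while Usp22 was marked in 1.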

How the data were processed

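Peaks of the 2 ChIP libraries were called per library, series 1 against 2 input libraries and series 2 against 1, per the peak names in the file. The submitters' processing notes list Bowtie2, SAMtools, MACS2 and build mm10, with neither versions nor settings. The authors deposited 1 whole-number score per peak, whose meaning is not stated, so scores were used only to describe and filter peaks within a list. The input libraries were not used here on their own.

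Gene spans came from RefSeq on GRCm38.p6 (the chromosomes of mm10), which gives no exons, so positions in exons, introns or UTRs are not stated. Peaks were intersected with the spans of coding genes on autosomes and sex chromosomes, and a peak in overlapping genes counts for each. Python 3.11.15, numpy 2.4.6 and pandas 2.3.3 were used, and the overlap code was tested on simulated data. With 1 library per series no test was made, SDs are over n = 2, and depth is unknown. Members and lists were chosen with earlier results of these data known, and the motifs and printed windows after seeing the data. Named were all members, and other deubiquitinase genes hit in both series. A planned search of protein sequences was not made. Alternatives changed the score and overlap minimum, gene flanks, shared and narrow peaks, member set and series.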

Additional observations from a re-analysis of the deposited data

How the results depend on the processing

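The counts of marked USP genes depended on the score and on the overlap asked for. With a score of at least 20, they were 13 in series 2 and 4 in both, with 0 of the other deubiquitinase and partner genes in both and a median covered share of 0.655% in place of 1.20% for USP genes marked in both. At a score of at least 50, they were 2 in series 1, 0 in series 2, 0 in both and 2 in either, with 0 of the other list in both. At 1% of the span, they were 12 in series 2, 4 in both and 22 in either, and at 10%, 1 in series 1, 1 in series 2, 0 in both and 2 in either, with 0 of the other list in both. Without the narrow peaks series 2 marked 16, and 9 were marked in both. With 1 series alone, 20 to 27 USP genes (20 in series 1) and 17 to 18 of the other list had a peak, and the median covered share was 0.923% to 1.26%. Fewer peaks or libraries entered each of these by construction. Asking for 100 bp, adding 2 kb to both ends, leaving out peaks shared with another coding gene, or leaving out Usp6nl and the Usp17 genes kept the count in both at 13 or 14. No paired analysis was possible because no processed values of the input libraries were used, and each series has 1 ChIP library. Depth is unknown, so genes without a peak were below detection only.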

Other observations

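Genes of the other deubiquitinase list marked in 1 series alone are given here by the 4 largest covered shares in each series, a choice made after their values were seen. The list was made by symbol, so a place in it, such as that of Pan2 or Uspl1, does not show deubiquitinase activity. In series 1, Zup1, a protease of long lysine 63 chains, held 1 peak over 9.55% of its span with a score of 30, and Otud4, of the OTU family, held 4 peaks over 6.64% with a highest score of 51. Bap1, a histone H2A deubiquitinase, held 1 peak of 332 bp over 3.87% with a score of 23, and Tnfaip3, a restraint on NF-kappaB signalling, held 1 of 530 bp over 3.65% with a score of 27. In series 2, Otub1 held 1 peak over 6.16% with a score of 29, Pan2 held 2 over 5.81% with a highest score of 24, Yod1 held 1 over 4.57% with a score of 12 and Uspl1 held 2 over 1.83% with a highest score of 53. The highest score among the genes marked in 1 series was 96, in Mindy2 in series 1, where 2 peaks covered 2.42%. With 1 library per series these differences have no replicate test.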
